A study of Rattus norvegicus with 12 samples.

Results

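The amino acid transporter families were followed across renal cortex and outer medulla in congestive left kidneys and control right kidneys of male Sprague-Dawley rats. Members were taken by name, as every gene with a symbol starting Slc1a, Slc3a, Slc6a, Slc7a, Slc36a, Slc38a or Slc43a, which gave 61 of the 18166 genes with a named row on the array. They comprised 7 Slc1a, 2 Slc3a, 17 Slc6a, 17 Slc7a, 4 Slc36a, 11 Slc38a and 3 Slc43a genes, each with 1 row. One of the 61, Slc7a6os, is an opposite-strand gene that matched by its name and is no transporter. The 4 groups were congestive cortex, control cortex, congestive outer medulla and control outer medulla, with 3 arrays each. In 3 rats aged 7 to 9 weeks the inferior vena cava was tied off between the renal veins, so that venous pressure rose on the left side, and both kidneys were taken 3 days later. The control kidney was therefore the other kidney of an operated rat and not that of an untouched animal. Arrays with the same replicate number were treated as pairs from 1 rat, and per-array values are given in the order of replicates 1, 2 and 3.

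The proximal tubule takes nearly all filtered amino acids back from the urine. Brush border transporters such as Slc6a19, Slc6a18, Slc1a1 and the Slc3a1 and Slc7a9 pair bring them into the cell, and basolateral transporters such as the Slc3a2 partners Slc7a7 and Slc7a8, together with Slc43a2, pass them on to the blood. Early segments of the tubule lie in the cortex and the straight segment reaches into the outer stripe of the outer medulla, and several of these genes are known for following that course. Other members serve uptake and exchange in many cell types, move amino acids across the lysosome membrane, or carry glutamate, neurotransmitters, creatine and taurine.

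All values were log2 array signals. The 12 arrays had medians between 6.02 and 6.09, and arrays of the same group correlated at r between 0.988 and 0.991 over all rows. The region labels were checked on defining markers. All 8 early proximal markers were higher in cortex in congestive kidneys and 6 of 8 in control kidneys, and all 6 thick ascending limb markers were higher in outer medulla in both. The 7 listed markers of the straight segment split, with 3 higher in outer medulla and 2 in cortex in congestive kidneys, and 4 and 2 in control kidneys, the cortical ones being Slc17a4 and Cyp2e1. Of the 61 members, 37 had a mean over all arrays above the median of all rows (6.04) and 24 lay at or below it, with means of 3.37 to 5.93. The dimmer 24 included the neuronal transporters Slc6a2, Slc6a3, Slc6a5 and Slc6a7, the glutamate transporters Slc1a2, Slc1a3, Slc1a6 and Slc1a7, and Slc7a11, the cystine and glutamate exchanger, which was the dimmest member. Only 2 of these 24, Slc38a4 and Slc7a15, passed a test in any comparison, against 33 of the brighter 37. The other 26 members passed in none, and the brighter ones among them were Slc38a10, Slc7a2, Slc7a4 and Slc7a6os.

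Cortex and outer medulla were compared first within each condition, to show in which region each transporter was higher. Bulk tissue of a region holds several cell types, so this does not place a gene in 1 segment of the nephron. In congestive kidneys 14 members were higher in cortex and 12 in outer medulla (limma, adjusted p under 0.05 over all 18166 genes), while 9.73% and 8.96% of all genes were called in those directions. In control kidneys cortex was higher for 11 and outer medulla for 18, beside 10.1% and 11.4% of all genes. Members called in either direction made up 42.6% of the families in congestive kidneys and 47.5% in control kidneys, where 18.7% and 21.5% of all genes were called. The median difference over the 61 members was nevertheless close to zero, at -0.04 and -0.03, beside -0.01 and 0.01 over all genes. Without replicate 1 the counts in congestive kidneys were 8 and 5.

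Slc6a19, the main sodium-dependent carrier of neutral amino acids in the brush border, had log2 values of 10.20, 9.93 and 10.43 in congestive cortex against 6.84, 6.38 and 8.06 in congestive outer medulla. In control kidneys it read 10.67, 10.64 and 10.98 in cortex against 7.66, 7.80 and 7.95 in outer medulla. The regions did not overlap in either condition, and the difference, cortex minus outer medulla, was 3.09 ± 0.32 in congestive and 2.96 ± 0.32 in control kidneys (standard error, adjusted p = 6.2e-05 and 3.8e-05, limma). Slc7a9, the light chain of the cystine and dibasic amino acid carrier, followed it with 10.65, 10.58 and 10.67 in congestive cortex against 8.70, 8.31 and 9.49 in congestive outer medulla. Its partner Slc3a1, the brightest member, did not, reading 12.43, 12.38 and 12.40 in congestive cortex against 12.70, 12.41 and 12.88 in congestive outer medulla. In control kidneys Slc3a1 was higher in outer medulla, with a difference of -0.61 (adjusted p = 0.00079), whereas Slc7a9 was higher in cortex by 1.63 (adjusted p = 0.00018).

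The basolateral carriers were mostly cortical. Slc7a7, which lets dibasic amino acids out of the cell, read 11.35, 10.93 and 11.35 in congestive cortex against 8.66, 8.50 and 9.32 in congestive outer medulla, and 11.62, 11.53 and 11.78 in control cortex against 8.70, 8.72 and 8.77 in control outer medulla. Slc7a8, an exchanger of neutral amino acids, read 11.66, 11.40 and 11.53 in congestive cortex against 9.17, 8.84 and 9.37 in congestive outer medulla, and 12.02, 11.80 and 11.82 in control cortex against 9.16, 9.23 and 8.88 in control outer medulla. Both were at least 2.38 higher in cortex on the log2 scale in either condition, with no overlap. Their shared heavy chain Slc3a2 was higher in cortex by 1.05 in congestive and 1.28 in control kidneys, and Slc43a2, an efflux carrier of branched-chain amino acids, by 1.05 and 1.55. Slc38a3, which takes up glutamine for ammonia production, was the 1 basolateral member of 5 with the opposite pattern. It read 8.19, 8.89 and 7.87 in congestive cortex against 10.46, 9.89 and 10.58 in congestive outer medulla, and 8.63, 9.38 and 8.07 in control cortex against 11.42, 11.18 and 11.29 in control outer medulla.

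The outer medullary end of the range was held by Slc7a13 and Slc7a12. Slc7a13, a partner of Slc3a1 in the straight segment, read 7.94, 9.24 and 7.30 in congestive cortex against 12.40, 12.06 and 12.50 in congestive outer medulla. In control kidneys it read 8.65, 10.46 and 6.44 in cortex against 13.01, 12.99 and 13.04 in outer medulla. The 3 control cortex arrays thus lay far apart, while the 3 control outer medulla arrays were nearly equal. The differences of -4.16 ± 0.76 in congestive and -4.49 ± 0.76 in control kidneys were the largest of any member. Slc7a12, described in mouse as an exchanger of small neutral amino acids, differed by -3.00 ± 0.25 in congestive and -3.99 ± 0.25 in control kidneys. Slc38a1, Slc38a2 and Slc38a4, sodium-coupled carriers of glutamine and alanine that stand next to each other on chromosome 7, were all higher in outer medulla, with differences of -1.44, -0.97 and -1.13 in congestive and -2.02, -1.07 and -1.38 in control kidneys. Without replicate 1, the Slc7a13 difference missed the threshold in congestive kidneys (-4.01, adjusted p = 0.11) and in control kidneys (-4.56, adjusted p = 0.052), as did that of Slc38a3 in congestive kidneys (-1.85, adjusted p = 0.079) and that of Slc38a4 in congestive kidneys (-0.93, adjusted p = 0.17). Of the 26 calls in congestive kidneys 13 stayed past the threshold whichever replicate was left out, and of the 29 in control kidneys 19 did.

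Further members followed one region or the other with smaller differences. The creatine carrier Slc6a8, bright everywhere, was higher in cortex by 0.90 in congestive and 1.01 in control kidneys, and the taurine carrier Slc6a6, which serves osmolyte balance, was higher in outer medulla, with differences of -1.03 and -1.02. Slc38a7 was higher in cortex by 1.09 in congestive and 1.81 in control kidneys, and Slc36a1, another lysosomal carrier, by 0.48 and 0.55. The glycine carrier Slc6a9 was higher in outer medulla, with -1.07 in congestive and -0.58 in control kidneys, and so was the exchanger Slc1a4, with -0.88 and -1.93. Slc6a20b, a proline carrier of the brush border, read 10.02, 10.11 and 10.09 in congestive cortex against 8.89, 8.28 and 9.35 in congestive outer medulla, a difference of 1.23 (adjusted p = 0.00095, but 0.054 without replicate 1). In control kidneys it read 9.95, 10.00 and 10.01 in cortex against 9.42, 9.46 and 9.62 in outer medulla, and the difference of 0.49 did not pass (adjusted p = 0.10). Left-out replicates ended the call of Slc36a1 in congestive kidneys (adjusted p = 0.065 and 0.091 without replicates 1 and 2) and in control kidneys (0.063 without replicate 2), of Slc1a4 in congestive kidneys (0.12 without replicate 1) and of Slc6a9 in control kidneys (0.11 and 0.17 without replicates 1 and 2). Among the remaining calls, Slc1a1, Slc38a9, Slc6a13 and Slc6a4 passed as higher in cortex in congestive kidneys, Slc38a6 and Slc43a1 did so in control kidneys, Slc43a3 and Slc7a1 passed as higher in outer medulla in both conditions, and Slc1a5, Slc36a4, Slc7a5, Slc7a6 and Slc7a15 did so in control kidneys. A call in 1 condition does not show that the conditions differed.

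**Figure D1:**
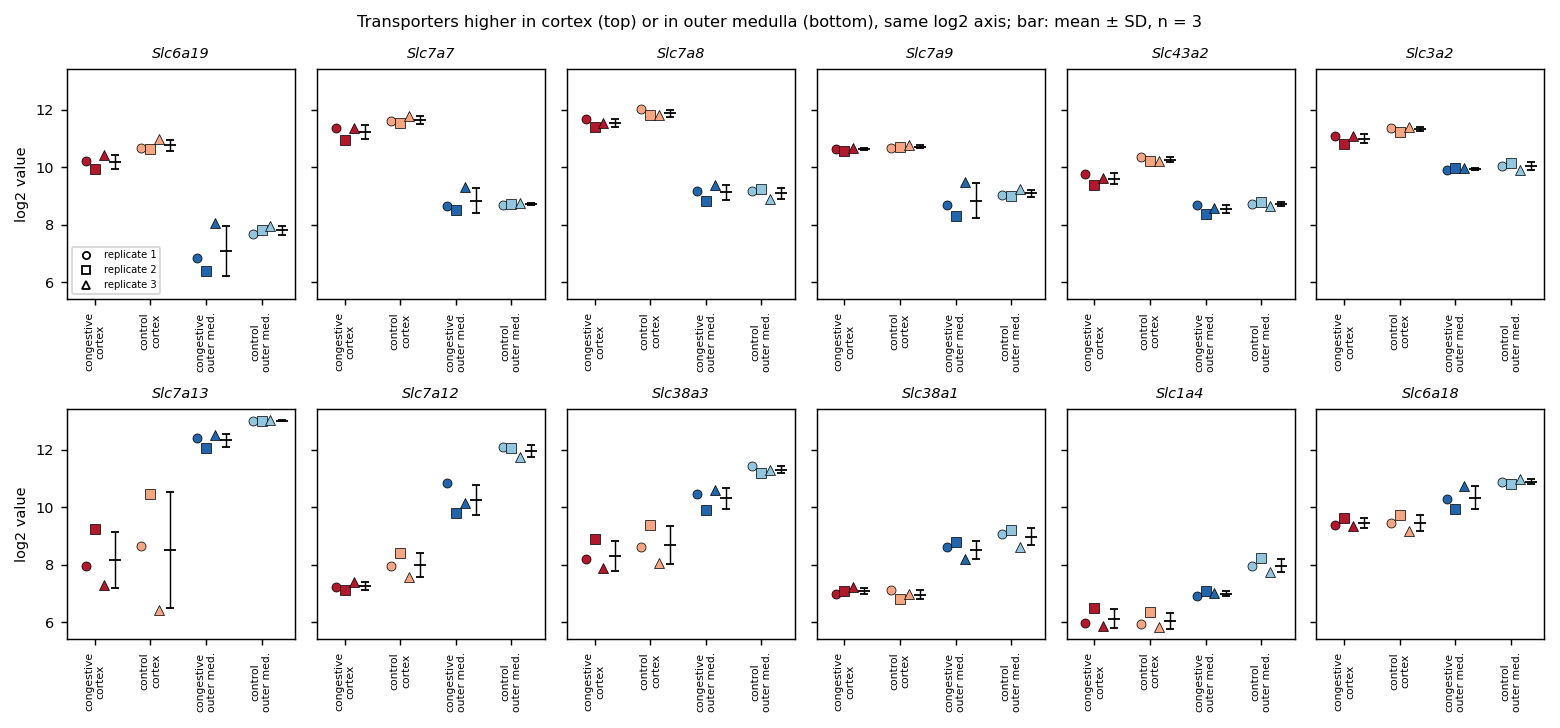
Log2 value of 12 transporters in each array, 1 panel per gene on the same axis, with congestive and control kidneys side by side in cortex and then in outer medulla; symbols mark replicates 1 to 3 and bars the mean ± SD (n = 3). The upper row falls from cortex to outer medulla and the lower row rises, and the control cortex arrays of Slc7a13 spread from 6.44 to 10.46.

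Slc6a19 and Slc6a18 are direct neighbours on chromosome 1, with 0 protein-coding genes between them, and had opposite region patterns. Slc6a18, a brush border carrier of glycine and other neutral amino acids, read 9.37, 9.63 and 9.34 in congestive cortex against 10.27, 9.95 and 10.75 in congestive outer medulla, and 9.45, 9.74 and 9.17 in control cortex against 10.88, 10.82 and 10.97 in control outer medulla. The difference was -0.88 in congestive kidneys (adjusted p = 0.0057, but 0.14 without replicate 1) and -1.44 in control kidneys (adjusted p = 0.00013). Stretches of 120 bases before the start of both genes are shown because both hold a match to GTTAAT, the letters of an HNF1 half-site, HNF1 being a transcription factor of the proximal tubule. Slc7a12 holds the same letters, and Slc1a4, the member with the clearest fall in outer medulla below, holds TGATGNAA, the core of the response element through which ATF4 acts in amino acid shortage. Sequences are from RefSeq (GRCr8), read 5′ to 3′ along the gene, with the match or its reverse complement in capitals.
Slc6a19, chr1:31414571-31414690, plus strand: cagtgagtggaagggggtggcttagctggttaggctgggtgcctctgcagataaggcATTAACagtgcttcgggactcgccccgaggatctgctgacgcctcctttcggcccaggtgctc
Slc6a18, chr1:31436477-31436596, plus strand: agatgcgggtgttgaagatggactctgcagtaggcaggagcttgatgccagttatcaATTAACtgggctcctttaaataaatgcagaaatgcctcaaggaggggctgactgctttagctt
Slc7a12, chr2:88868129-88868248, minus strand: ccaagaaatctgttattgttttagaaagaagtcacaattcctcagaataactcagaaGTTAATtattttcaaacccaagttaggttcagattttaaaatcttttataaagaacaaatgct
Slc1a4, chr14:98761693-98761812, minus strand: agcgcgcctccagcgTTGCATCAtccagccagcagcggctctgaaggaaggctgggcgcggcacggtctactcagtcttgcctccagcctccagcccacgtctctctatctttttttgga
Of the 61 members 46 had a promoter in the table, as 300 bases around the start, and 4 of them had several. Searched on both strands, GTTAAT was present in 5 of 46 (10.9%) and in 8.12% of 27457 genes with promoters of that length. The 5 were Slc6a18, Slc6a19, Slc6a20b, Slc7a12 and Slc7a15, of which Slc6a19 was cortical and Slc6a18, Slc7a12 and Slc7a15 were outer medullary in control kidneys. TGATGNAA was present in 3 of 46 (6.52%), namely Slc1a4, Slc38a1 and Slc7a1, and in 4.16% of all genes. A match describes the letters only.

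Congestive and control cortex were then compared to ask which transporters changed with venous congestion. In cortex 5 members rose and 4 fell, that is 8.2% and 6.56% of the 61, where 7.98% and 3.64% of all genes rose and fell. Without replicates 1, 2 and 3 in turn, 2, 1 and 3 rose and 1, 2 and 3 fell. The median change was -0.02 over the members and -0.02 over all genes. The 9 brush border genes gave 0 calls (lowest adjusted p = 0.16 in limma). That value was of Slc6a19, which was lower in all 3 pairs without overlap by -0.57 and passed when cortex was fitted alone (adjusted p = 0.017). Of the 5 basolateral genes 2 fell, and Slc6a13, which was placed in another role group, fell as well. Among 16 members used for uptake and exchange in many cells 3 rose and 0 fell, while 1 of 4 lysosomal members rose and 1 fell. These role groups were drawn from general knowledge of the genes after values had been seen.

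The largest rise in cortex was that of Slc43a3, which is known in human cells as a carrier of purine bases rather than amino acids. It read 9.34, 9.69 and 9.52 in congestive cortex against 8.50, 8.71 and 8.72 in control cortex. The groups did not overlap, and the change was 0.87 ± 0.11 (1.83-fold higher, adjusted p = 0.002, limma). Slc7a6, which exchanges arginine for glutamine, read 6.59, 6.86 and 6.35 in congestive cortex against 5.92, 5.90 and 5.96 in control cortex (1.60-fold higher, adjusted p = 0.0071). Slc38a4 read 5.25, 5.72 and 5.39 in congestive cortex against 4.74, 5.21 and 4.77 in control cortex, and Slc38a2, the carrier that many cells raise when amino acids are short, 9.95, 10.33 and 10.00 against 9.63, 9.67 and 9.63. Both rose in all 3 pairs without overlap of the groups, by 0.55 and 0.45 (adjusted p = 0.011 and 0.017). Slc38a9, the arginine sensor of the lysosome, rose by 0.37 (adjusted p = 0.034), with 8.12, 8.16 and 8.25 in congestive cortex against 7.79, 7.83 and 7.78 in control cortex.

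Of the members that fell in cortex, Slc43a2 changed most. It read 9.78, 9.39 and 9.62 in congestive cortex against 10.37, 10.22 and 10.21 in control cortex, a change of -0.67 ± 0.09 (1.59-fold lower, adjusted p = 0.004). Slc6a13, a carrier of GABA and taurine in the basolateral membrane of mouse proximal tubule, read 9.09, 9.04 and 9.35 in congestive cortex against 9.78, 9.76 and 9.85 in control cortex (1.55-fold lower, adjusted p = 0.014). Neither gene had overlapping groups. Slc3a2 read 11.09, 10.80 and 11.07 in congestive cortex against 11.35, 11.24 and 11.39 in control cortex, and Slc38a7, a lysosomal glutamine carrier, 9.01, 9.00 and 9.07 against 9.48, 9.31 and 9.38. They fell by 0.34 and 0.37 (adjusted p = 0.033 and 0.035), again in every pair. The 3 other basolateral genes did not pass, at -0.43 for Slc7a7 (adjusted p = 0.089), -0.35 for Slc7a8 (adjusted p = 0.16) and -0.38 for Slc38a3 (adjusted p = 0.075), each lower in all 3 pairs. With cortex fitted alone Slc7a7 and Slc7a8 passed (adjusted p = 0.042 and 0.043), and with dim genes filtered out Slc7a7 and Slc38a3 did (0.048 and 0.037), Slc38a3 also with trend and robust eBayes (0.026).

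Of the 9 cortical calls, those of Slc43a2 and Slc43a3 were kept whichever pair was left out. Slc38a2 (adjusted p = 0.064, 0.15 and 0.076 without replicates 1, 2 and 3), Slc38a7 (0.19, 0.11 and 0.10), Slc38a9 (0.14, 0.10 and 0.15) and Slc3a2 (0.11, 0.22 and 0.12) missed the threshold without any 1 pair. Slc7a6 missed it without replicate 1 (adjusted p = 0.069) or 2 (0.065), Slc38a4 without replicate 2 (0.093) and Slc6a13 without replicate 1 (0.10). Without the replicate block Slc38a4 (0.16), Slc7a6 (0.071) and Slc6a13 (0.052) missed it. Slc3a2 also missed it with cortex fitted alone. All 9 kept their direction.

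More members passed in outer medulla than in cortex, where 14.8% of the 61 and 11.6% of all genes were called. In outer medulla 27.9% of the members and 23.2% of all genes were called in either direction. There 6 members rose and 11 fell, that is 9.84% and 18.0% of the 61, beside 11.8% of all genes rising and 11.3% falling. Without replicates 1, 2 and 3 in turn, 1, 2 and 3 rose and 5, 5 and 12 fell. The median change was -0.07 over the members and -0.01 over all genes. Of the 9 brush border genes 5 fell and 0 rose, with a median change of -0.56. Of 16 uptake and exchange members 4 fell and 2 rose, and the falls counted there included Slc7a12, which was far higher in outer medulla than in cortex. Of the 5 genes grouped as basolateral only Slc38a3 fell, and 0 rose, while Slc6a13, outside that group, fell too.

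The largest fall was that of Slc7a12, which read 10.83, 9.81 and 10.13 in congestive outer medulla against 12.09, 12.07 and 11.73 in control outer medulla. The highest congestive array lay well below the lowest control array, and the change was -1.70 ± 0.23 (3.26-fold lower, adjusted p = 0.0014, limma). In cortex, where it was much dimmer, Slc7a12 read 7.23, 7.13 and 7.41 in congestive kidneys against 7.95, 8.40 and 7.57 in control kidneys, and the change of -0.72 did not pass (adjusted p = 0.081). It was lower there in all 3 pairs without overlap, and passed with dim genes filtered out (adjusted p = 0.045). Slc38a3 read 10.46, 9.89 and 10.58 in congestive outer medulla against 11.42, 11.18 and 11.29 in control outer medulla (1.98-fold lower, adjusted p = 0.00077). Slc6a13 read 8.10, 7.90 and 8.77 in congestive outer medulla against 9.07, 9.27 and 9.49 in control outer medulla (2.03-fold lower, adjusted p = 0.00083), so that it fell in both regions. Slc1a4, an exchanger of alanine, serine and cysteine, read 6.91, 7.07 and 7.00 in congestive outer medulla against 7.95, 8.22 and 7.74 in control outer medulla (1.97-fold lower, adjusted p = 0.0003). It had the smallest adjusted p of the members in either region.

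The 5 brush border genes that fell in outer medulla were Slc6a20b, Slc6a18, Slc1a1, Slc6a20a and Slc3a1. Slc6a18 read 10.27, 9.95 and 10.75 in congestive outer medulla against 10.88, 10.82 and 10.97 in control outer medulla, a change of -0.57 ± 0.12 (adjusted p = 0.013, limma). Slc1a1, the carrier of glutamate and aspartate, read 9.90, 9.68 and 10.40 against 10.54, 10.52 and 10.59 in the same order, a change of -0.56 ± 0.12 (adjusted p = 0.013). Slc3a1 read 12.70, 12.41 and 12.88 against 13.04, 12.95 and 13.04, a change of -0.35 ± 0.09 (adjusted p = 0.022). None of the 3 had overlapping groups, and in each the congestive array of replicate 2 was lowest and that of replicate 3 lay nearest to its control. The neighbouring proline carriers Slc6a20b and Slc6a20a fell by 0.66 and 0.55 (adjusted p = 0.016 and 0.022), and their probes may share signal, since they are close copies.

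The other 4 brush border genes did not pass in outer medulla. Slc6a19 read 6.84, 6.38 and 8.06 in congestive outer medulla against 7.66, 7.80 and 7.95 in control outer medulla, a difference of -0.71 ± 0.23 (adjusted p = 0.063), and it passed with dim genes filtered out (adjusted p = 0.033), with array medians centred (0.042) and, at -1.12, without replicate 3 (0.0061). Slc7a13 read 12.40, 12.06 and 12.50 against 13.01, 12.99 and 13.04 in the same order, without overlap, and differed by -0.69 ± 0.33 (adjusted p = 0.18). It passed with outer medulla fitted alone (adjusted p = 0.0075). Without replicate 3 it passed in outer medulla at -0.76 (adjusted p = 0.019) and in cortex at -0.97 (adjusted p = 0.021), where the difference over all pairs was -0.36 (adjusted p = 0.52). Slc7a9 read 8.70, 8.31 and 9.49 against 9.05, 9.00 and 9.23 in outer medulla, with overlapping groups and a difference of -0.26 (adjusted p = 0.29), and passed without replicate 3 at -0.52 (adjusted p = 0.03). Slc36a2, a proton-coupled carrier of glycine and proline, was dim in all groups, at 4.92 to 5.30, and differed by 0.01.

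Markers of the proximal tubule were read in the same arrays. The mean log2 value of the 9 brush border transporters was 9.16, 8.82 and 9.60 in congestive outer medulla against 9.65, 9.61 and 9.75 in control outer medulla. For 8 early proximal markers it was 10.00, 9.19 and 10.64 in congestive outer medulla against 10.54, 10.57 and 10.52 in control outer medulla. For 7 markers of the straight segment it was 9.14, 8.82 and 9.51 against 9.61, 9.67 and 9.56 in the same order. In all 3 lists the congestive array of replicate 2 was lowest and that of replicate 3 highest. For the early markers the congestive array of replicate 3, at 10.64, lay above its control at 10.52. Of the early markers 1 fell (Slc22a6) and 0 rose in outer medulla, a falling share of 12.5% beside 11.3% of all genes. Of the straight segment markers 4 fell (Slc22a7, Acy3, Cyp2e1 and Atp11a), or 57.1%. Slc17a4 of the same list had a change of 0.49 that did not pass (adjusted p = 0.088). Median changes in outer medulla were -0.51 for the early list and -0.39 for the straight segment list. The shares called thus did not follow the size of the change. In bulk tissue, fewer cells of a type and less RNA per cell cannot be told apart, and the part of cell content in the transporter changes was not tested. In cortex the early markers averaged 12.04, 11.89 and 12.01 in congestive kidneys against 12.19, 12.11 and 12.14 in control kidneys, and 0 of 8 passed. The congestive means were lower in all 3 pairs, without overlap. The fit gave each gene 1 spread for both regions, so the cortical tests also carried the spread between outer medullary pairs.

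**Figure D2:**
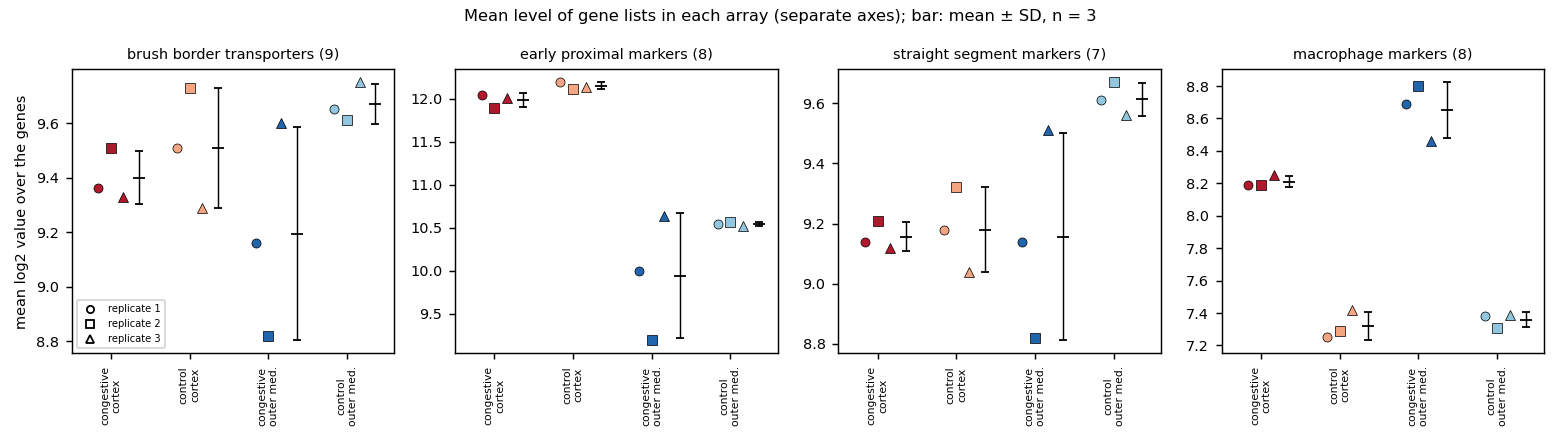
Mean log2 value in each array over 9 brush border transporters, 8 early proximal markers, 7 straight segment markers and 8 macrophage markers, on separate axes; bars show the mean ± SD (n = 3). In congestive outer medulla the array of replicate 2 is lowest in the first 3 panels, at 8.82, 9.19 and 8.82.

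Among carriers used by many cell types, falls and rises stood side by side in outer medulla. Slc38a1 read 8.61, 8.79 and 8.18 in congestive outer medulla against 9.07, 9.21 and 8.63 in control outer medulla, and Slc7a5, the exchanger of large neutral amino acids, 7.36, 7.97 and 7.54 against 7.89, 8.29 and 8.14. The groups of both overlapped, but each fell in all 3 pairs, with changes of -0.44 and -0.48 (adjusted p = 0.011 and 0.0079). Slc38a2, the neighbour of Slc38a1, moved the other way, at 10.97, 11.20 and 11.03 in congestive outer medulla against 10.72, 10.84 and 10.58 in control outer medulla (1.28-fold higher, adjusted p = 0.025). It thus rose in both regions. Slc43a3 did as well, reading 10.17, 9.94 and 9.70 in congestive outer medulla against 9.01, 9.26 and 8.97 in control outer medulla (1.82-fold higher, adjusted p = 0.00099).

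The remaining rises in outer medulla were below 1.5-fold. The glycine carrier Slc6a9 read 7.84, 8.24 and 7.82 in congestive outer medulla against 7.37, 7.56 and 7.47 in control outer medulla (1.41-fold higher, adjusted p = 0.022). Slc43a1, a carrier of branched-chain amino acids, read 6.67, 6.69 and 6.34 against 6.0, 5.93 and 6.26 in the same order (1.42-fold higher, adjusted p = 0.034). Slc38a6, whose substrates are less well known, read 7.06, 7.06 and 7.03 against 6.67, 6.69 and 6.63 (1.31-fold higher, adjusted p = 0.012), and Slc38a7 7.95, 7.87 and 8.0 against 7.57, 7.70 and 7.47 (1.28-fold higher, adjusted p = 0.022). None of these 4 had overlapping groups. The amino acid response carriers included Slc38a2, which rose in both regions, and Slc7a5, which fell in outer medulla. The others, Slc1a5, Slc7a1 and Slc7a11, did not pass in either region. Their cortical changes were 0.14, 0.17 and -0.01, and their outer medullary changes 0.09, 0.21 and -0.04. The taurine carrier Slc6a6 and the creatine carrier Slc6a8 did not pass either, with changes between -0.10 and 0.03.

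Of the 17 calls in outer medulla, 5 were kept whichever pair was left out, those of Slc1a4, Slc38a3, Slc43a3, Slc6a13 and Slc7a12. The 5 brush border calls were each lost without replicate 1 (adjusted p = 0.11 for Slc1a1, 0.14 for Slc3a1, 0.11 for Slc6a18, 0.14 for Slc6a20a and 0.084 for Slc6a20b) and without replicate 2 (0.12, 0.19, 0.10, 0.15 and 0.065 in that order). Slc38a2 (0.081, 0.085 and 0.14 without replicates 1, 2 and 3), Slc38a6 (0.061, 0.07 and 0.068) and Slc6a9 (0.09, 0.052 and 0.055) missed the threshold without any 1 pair. Slc43a1 missed it without replicate 1 or 2 (0.20 each), Slc38a7 without 1 or 3 (0.13 and 0.15), Slc7a5 without 1 or 3 (0.078 and 0.061) and Slc38a1 without 2 or 3 (0.061 and 0.059). Slc38a1 also missed it without the replicate block (0.087). With outer medulla fitted alone, Slc3a1, Slc38a7 and Slc43a1 missed it. Every call kept its direction. With 3 pairs, p-values rest on the spread between few arrays.

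**Figure D3:**
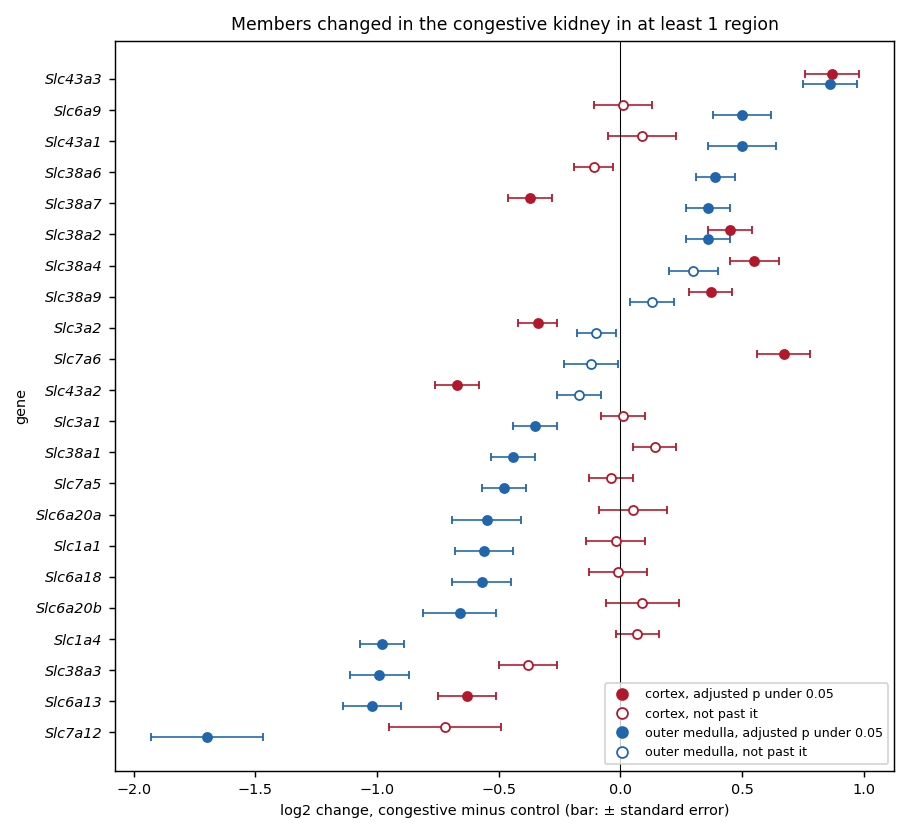
Log2 change, congestive minus control, of the 22 members that passed the test in at least 1 region, with cortex in red and outer medulla in blue; bars are ± 1 standard error of the fit and filled points passed at adjusted p under 0.05. Slc43a3, Slc38a2, Slc38a7 and Slc6a13 are filled in both regions, and the lower part of the plot is filled mainly for outer medulla.

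In all, 22 members passed in at least 1 region, 4 in both and 39 in neither. A call in 1 region alone does not show that the regions differed, so the outer medullary change was tested against the cortical one. The difference, outer medullary minus cortical change, passed upward for 1 member and downward for 1, where 0.804% and 0.815% of all genes passed, 1.62% together. Slc1a4 was the member with the more negative change in outer medulla. In cortex it read 5.98, 6.49 and 5.87 in congestive kidneys against 5.93, 6.35 and 5.84 in control kidneys, a difference of 0.07, so that the difference of changes was -1.05 ± 0.13 (adjusted p = 0.014, limma). Slc38a7 fell in cortex and rose in outer medulla, with a difference of changes of 0.73 ± 0.13 (adjusted p = 0.037). With the replicate block within numbers, which joins both regions of 1 rat, Slc38a7 missed the threshold (adjusted p = 0.065) and Slc1a4 kept it (0.038), whereas without the replicate block Slc1a4 missed it (0.087). The levels of Slc38a7 in the 2 regions drew together, since its gap between cortex and outer medulla was 1.09 in congestive kidneys and 1.81 in control kidneys. Slc1a4 missed the threshold without replicate 1 or 2 (adjusted p = 0.17 and 0.14) and lay at 0.05 without replicate 3, and Slc38a7 missed it without any 1 of them (0.31, 0.14 and 0.15). Slc7a6, which rose in cortex and read 7.27, 7.48 and 6.79 in congestive outer medulla against 7.40, 7.67 and 6.82 in control outer medulla, came next with a difference of changes of -0.79 (adjusted p = 0.053). It passed with array medians centred (adjusted p = 0.039), dim genes filtered out (0.02), quantile normalization (0.048) and trend and robust eBayes (0.015). It did not pass in the other alternatives.

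**Figure D4:**
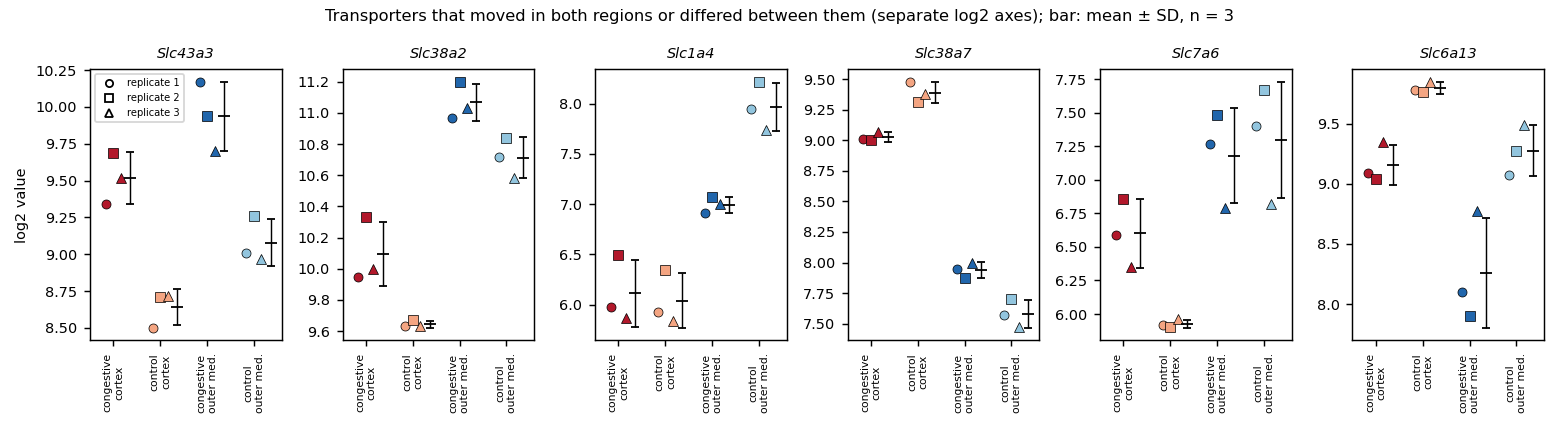
Log2 value in each array of 6 transporters that passed in both regions or came first in the test of the difference between regions, on separate axes; bars show the mean ± SD (n = 3). Congestive arrays of Slc43a3 and Slc38a2 lie above the control arrays in both regions, and those of Slc38a7 lie below them in cortex and above them in outer medulla.

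Partners and neighbours of the transporters were taken as a list of 21 genes, of which 16 had a named row. In cortex 1 rose and 0 fell, and in outer medulla 1 rose and 9 fell, with a median change of -0.53. Over all genes the rising share was 7.98% for cortex and 11.8% for outer medulla, and the falling share 3.64% and 11.3%. The scaffold genes Pdzk1 and Nherf1, which hold brush border transporters in place, fell in outer medulla by 0.64 and 0.49 (adjusted p = 0.025 and 0.0075, limma). The peptide carrier Slc15a2 read 10.18, 9.62 and 10.41 in congestive outer medulla against 10.96, 10.89 and 11.0 in control outer medulla (change -0.88, adjusted p = 0.0021). The sodium and proton exchanger Slc9a3 read 9.54, 9.39 and 9.53 in congestive outer medulla against 10.51, 10.59 and 10.52 in control outer medulla, a change of -1.05 (adjusted p = 0.00011). For Slc9a3 the change also differed from that in cortex, by -0.88 (adjusted p = 0.015). Cltrn, the partner that Slc6a19 needs at the cell surface, did not pass in either region, with 0.00 in cortex and -0.28 in outer medulla (adjusted p = 0.19). The lysosomal peptide carrier Slc15a3 was the 1 gene that rose, with a cortical change of 0.47 and an outer medullary one of 0.50 (adjusted p = 0.0081 and 0.0031). Without replicate 1 the count of falls in outer medulla was 2, and without replicate 2 it was 3.

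Genes that cells induce through ATF4 when amino acids are short were called in both directions. Of 32 listed genes 28 had a named row, of which 2 rose and 3 fell in cortex. In outer medulla 4 rose and 2 fell. The rising shares, 7.14% in cortex and 14.3% in outer medulla, lay near the 7.98% and 11.8% of all genes. The falling shares were 10.7% and 7.14%, beside 3.64% and 11.3% of all genes, and the median changes were 0.00 for cortex and 0.01 for outer medulla. Asns, which makes asparagine, rose in cortex by 0.48 (adjusted p = 0.014, limma) and in outer medulla by 0.31 (adjusted p = 0.039). Aldh18a1, which starts proline synthesis, read 7.46, 7.82 and 7.76 in congestive cortex against 7.16, 7.06 and 7.14 in control cortex, and 7.56, 8.10 and 7.62 in congestive outer medulla against 6.75, 6.82 and 6.57 in control outer medulla (changes of 0.56 and 1.05, adjusted p = 0.021 and 0.00063). The serine and glycine synthesis genes Phgdh, Psph and Shmt2 fell in cortex by 0.69, 0.57 and 0.53, and Psat1 fell in outer medulla by 0.56. Atf3 and Eif4ebp1 rose in outer medulla by 0.47 and 0.44, Cth, a cysteine synthesis gene, fell there by 0.93, and Atf4 itself changed by -0.05 in cortex and 0.01 in outer medulla. Without replicates 1, 2 and 3 in turn, cortex gave 1, 0 and 1 rising and 1, 0 and 3 falling, whereas outer medulla gave 1, 2 and 2 rising and 1, 1 and 2 falling.

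Other cell types moved in the same arrays. The mean of 8 macrophage markers was 8.19, 8.19 and 8.25 in congestive cortex against 7.25, 7.29 and 7.42 in control cortex, and 8.69, 8.80 and 8.46 in congestive outer medulla against 7.38, 7.31 and 7.39 in control outer medulla. Of these markers 6 rose in cortex and all 8 in outer medulla, and all 4 fibroblast markers rose in both regions. Thick ascending limb markers fell for 4 of 6 in cortex and 5 of 6 in outer medulla, and collecting duct markers for 5 of 5 and 4 of 5. For comparison, upward calls made up 7.98% of all genes in cortex and 11.8% in outer medulla. Downward calls made up 3.64% in cortex and 11.3% in outer medulla. Of 4 genes that injured proximal tubule expresses, Havcr1, Spp1 and Vcam1 rose in both regions and Krt20 in neither (adjusted p = 0.83 and 0.23). Havcr1, the kidney injury molecule, read 9.21, 10.94 and 9.65 in congestive cortex against 4.94, 5.77 and 4.56 in control cortex, and 10.35, 11.74 and 11.59 in congestive outer medulla against 5.61, 5.77 and 7.24 in control outer medulla. The changes were 4.84 and 5.02 for Havcr1, 2.97 and 1.10 for Spp1 and 0.65 and 1.70 for Vcam1, cortex first. The part of proximal injury in the transporter changes was not tested. The part of the other cell types in the changes of widely used carriers such as Slc43a3, Slc38a2 and Slc7a6 was not tested.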

How the data were processed

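Total RNA of 12 tissue samples was hybridized to GeneChip Rat Gene 2.0 ST arrays. The authors used Affymetrix Expression Console, and the deposited log2 values are normalized signals per transcript cluster. Its version and summarization, and the log base, taken as 2 after the program's usual output, were not given in the sources used here. Raw intensities were not used, so signal over background is unknown.

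Of 36685 rows 18511 carried 1 symbol in the platform annotation, 575 several and 17599 none, and the brightest row was kept for each of 18166 genes. Family members without such a row are not analysed here. Changes with congestion and their difference between regions were fitted with limma 3.58.1 in R 4.3.3 on all 12 arrays with 6 pair blocks (4 residual and 3.96 prior degrees of freedom). For each gene this fit used 1 estimate of spread for both regions. Region differences came from a fit of the 4 group means (8 residual and 3.66 prior). P-values were two-sided and adjusted by Benjamini-Hochberg over all genes, at a threshold of 0.05. The congestion contrast in cortex and the region contrast in control kidneys were tried on simulated arrays with independent noise. The simulation held no pair effects, so the pairing and the other contrasts were not tested by it. Contrasts share arrays.

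Pairs rest on the study's comparison of both kidneys of the same 3 rats and on the replicate numbers. Deviations of same-numbered congestive and control arrays from their group means correlated at 0.00, 0.14 and 0.34 (cortex) and at 0.17, 0.25 and 0.21 (outer medulla). For replicate 3 in cortex the title was used, since the source name gives number 2.

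Values are given for the 6 largest called changes in each direction and comparison that ran the same way in all 3 pairs, for known proximal tubule transporters and for amino acid response transporters, with others as ranges or counts. Members, lists and role groups were chosen with earlier results of these data known. Alternatives left out each replicate, dropped or added the replicate block, fitted a region alone, filtered dim genes, averaged rows or adjusted over all rows. Others re-centred or quantile normalized the arrays, or used trend and robust eBayes. A further alternative was an unpaired t-test with equal variances, which ignores the pairs. The paper names a t-test in general, without saying whether its arrays were tested with it.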

Additional observations from a re-analysis of the deposited data

Results flagged for a closer look

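For 2 members the change with congestion differed between the regions when that difference was tested. For Slc1a4 the change in outer medulla minus that in cortex was -1.05 (adjusted p = 0.014, limma), and it was negative in all 3 replicate numbers. For Slc38a7 it was 0.73 (adjusted p = 0.037), positive in all 3. Over the alternatives with all replicates the adjusted p of Slc1a4 ran between 0.0017 and 0.087 and that of Slc38a7 between 0.0036 and 0.14.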

How the results depend on the processing

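No called change of a member changed sign under any alternative. Counts of members moved as follows. Adjusted over all rows, 3 rose and 1 fell in cortex, 2 rose in outer medulla, and 0 and 0 differed between regions. With the filter on dim genes 7 fell in cortex, 2 and 3 differed between regions upward and downward, and the median difference over members was -0.138 between the changes of the regions and -0.186 between regions in control kidneys. Trend and robust eBayes gave 3 and 4 for the difference between regions, and centring and quantile normalization gave 2 downward each. The unpaired t-test, after Benjamini-Hochberg adjustment, called 0 rising and 0 falling members in cortex, beside 1 and 1 for outer medulla. Unadjusted, it called 9 as falling in cortex and 5 in outer medulla.

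Without the replicate block 3 rose in cortex, and 0 members differed downward between regions. With the replicate block within numbers 0 differed upward. With the replicate block added to the region comparison, 14 and 15 members differed in congestive kidneys and 12 and 18 in control kidneys, and the calls of the 26 and the 29 members were all kept.

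With 1 replicate left out, counts ranged from 1 to 3 rising and 1 to 3 falling in cortex, and from 1 to 3 rising and 5 to 12 falling in outer medulla. They ranged from 0 to 0 upward and 0 to 1 downward between regions, and in congestive kidneys from 8 to 13 higher in cortex and 5 to 13 higher in outer medulla. Accessory genes ranged from 0 to 1 rising in cortex, and from 1 to 2 rising and 2 to 12 falling in outer medulla. Amino acid response genes ranged from 0 to 1 rising and 0 to 3 falling in cortex, and from 1 to 2 rising and 1 to 2 falling in outer medulla. The cause of these shifts was not tested. With 3 arrays a group, a change that did not pass is not shown to be absent.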
